A study of Mus musculus with 5 samples.

Results

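The Nr4a nuclear receptors are a family of 3 genes, Nr4a1, Nr4a2 and Nr4a3, and their RNA was read here across the cell types of the mouse dentate gyrus. The members were the rows whose gene symbol equals one of these names. Each name matched 1 of 78334 gene rows in all 5 libraries (Nr4a1 is ENSMUSG00000023034.8, Nr4a2 ENSMUSG00000026826.14 and Nr4a3 ENSMUSG00000028341.10).

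Dissociated whole cells came from wild-type mice taken 14 days after contextual fear conditioning (CFC-14d) or 14 days after foot shocks given at random (Random-14d). Nuclei of frozen tissue came from untreated wild-type mice (WT-naive), from wild-type mice 14 days after the same conditioning (WT-CFC), and from conditioned mice given as Csf2rb2 knockouts in one label and as Csf2rb3-KO in another (KO-CFC). Csf2rb2 codes for the beta subunit of the IL-3 receptor in mice. Each group was 1 library for which 10 mice were used, so cells are not replicates, and no test between groups could be made. All differences below compare libraries, and their intervals cover counting error only. Strain, sex and age are not given in the labels used here.

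The Nr4a proteins are orphan nuclear receptors, transcription factors for which no ligand of the classical kind is established. Their genes are immediate-early genes: calcium, cAMP and growth signals acting through CREB, MEF2 and SRF switch them on within minutes, and the RNA is short-lived. In the hippocampus they are known for their induction by neuronal activity and learning. Nr4a1 is also known as the factor that patrolling, non-classical monocytes need to develop, Nr4a2 as a factor of dopamine neurons, and all members as factors that antigen-receptor signalling induces in lymphocytes.

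CREB binds the cAMP response element (CRE), and the upstream sequences are shown because the members were high together in the same neuronal nuclei, as described below. Each stretch is the 250 bases before the annotated start, on the strand of the gene, from RefSeq on GRCm38.p6: Nr4a1 at chr15:101266596-101266845 on the plus strand, Nr4a2 at chr2:57124004-57124253 on the minus strand and Nr4a3 at chr4:48045055-48045304 on the plus strand. All 3 members matched an entry. Capitals mark the conserved core of the CRE (TGACG, or CGTCA when read from the other strand).
Nr4a1: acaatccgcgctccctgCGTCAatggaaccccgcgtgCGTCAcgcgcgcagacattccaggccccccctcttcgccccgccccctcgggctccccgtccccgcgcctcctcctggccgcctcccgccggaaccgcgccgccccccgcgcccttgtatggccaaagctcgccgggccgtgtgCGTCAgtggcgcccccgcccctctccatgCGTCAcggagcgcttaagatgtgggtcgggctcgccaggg
Nr4a2: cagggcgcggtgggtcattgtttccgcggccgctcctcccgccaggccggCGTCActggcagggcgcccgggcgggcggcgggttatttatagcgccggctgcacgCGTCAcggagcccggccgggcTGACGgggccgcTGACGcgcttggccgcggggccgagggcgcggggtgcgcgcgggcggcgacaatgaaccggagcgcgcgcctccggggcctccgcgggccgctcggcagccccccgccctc
Nr4a3: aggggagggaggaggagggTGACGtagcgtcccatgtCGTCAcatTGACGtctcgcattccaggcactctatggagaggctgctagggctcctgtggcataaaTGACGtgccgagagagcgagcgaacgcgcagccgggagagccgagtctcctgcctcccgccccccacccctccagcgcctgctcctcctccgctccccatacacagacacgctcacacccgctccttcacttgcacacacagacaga
Each stretch held 4 cores, counted on both strands. Of 32851 promoters of the same length, 5836 (17.8%) held at least 1 core and 45 (0.137%) held at least 4. The core contains the pair CG, and G and C made up 74.4%, 80.0% and 63.6% of the Nr4a1, Nr4a2 and Nr4a3 stretches. The promoters counted were not matched for this content. In Nr4a1 the cores began 233, 213, 69 and 40 bases before the start, all on the opposite strand, whereas those of Nr4a2 and Nr4a3 lay on both strands. No full CRE (TGACGTCA, present in 1.55% of the promoters), with which a core would overlap, was in these windows. The monomer site that Nr4a proteins bind (NBRE, AAAGGTCA or its reverse complement, in 1.34% of the promoters) was not in them either. These matches describe the letters and were not measured as bound sites.

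**Figure D1:**
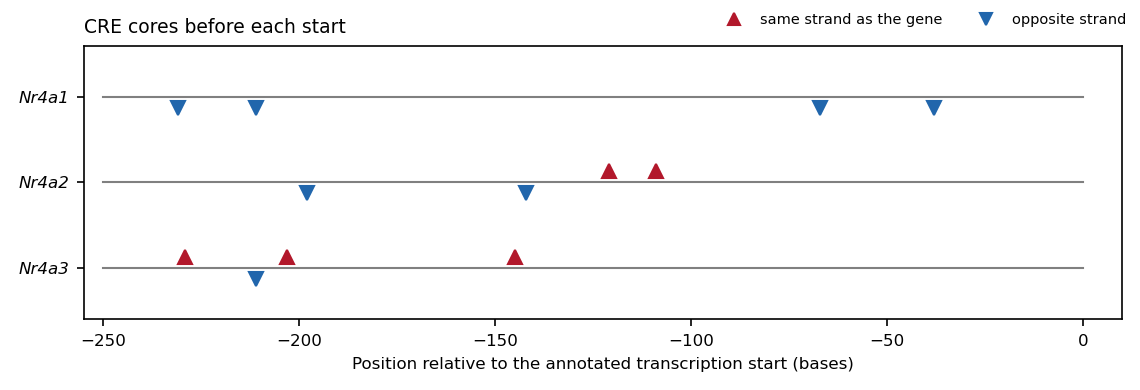
CRE cores in the 250 bases before the annotated start of each member; the horizontal axis is the distance to the start in bases, and triangles pointing up or down mark a core on the strand of the gene or on the opposite one. Each gene has 4, all on the opposite strand in Nr4a1 and on both strands in Nr4a2 and Nr4a3.

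The cell libraries held 32827 and 30515 barcodes (conditioned and random shocks) and the nuclear libraries 8395 to 13213, with 38045642 to 126937815 unique molecular identifiers (UMIs, the counted molecules). After filters and doublet removal, 7149 to 28532 barcodes a library were clustered and named from marker genes. The dissected tissue held more than the dentate gyrus: CA3 or CA2 pyramidal neurons were 34.2% of the WT-naive nuclei and granule neurons 12.7%, and the cells held few neurons but choroid plexus, vessel and blood classes. The library labelled KO-CFC stood apart. It held the female transcript Xist at 582 CPM against 3.04 and 1.87 CPM in WT-naive and WT-CFC, the Y-linked Uty at 15.1 CPM against 102 and 96.2, and 247 T cell nuclei against 0 and 1. Csf2rb2 was among the markers used to name mossy cells. KO-CFC still held its RNA, at 80.4 CPM in that class against 96.1 in WT-naive and 117 in WT-CFC. Reads from undeleted exons would count too, so this level does not check the deletion, and genotype and sex cannot be told apart here. The 2 cell libraries shared 282 barcodes and the pairs of nuclear libraries 25 to 32.

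In the dissociated cells, Nr4a1 was highest in non-classical monocytes, which patrol the inside of small vessels. It stood at 833 CPM (counts of UMIs per 1000000 of the class total, 95% counting interval 748 to 925) in CFC-14d and 860 CPM (741 to 993) in Random-14d, with 133 and 87 cells. Classical monocytes, the inflammatory precursors in blood, followed at 382 (306 to 472) and 385 (286 to 507) CPM, and their intervals did not overlap those of the non-classical cells in either library. The order of monocyte classes was therefore the same in both libraries.

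The next classes formed a group whose neighbours did not differ beyond counting error. Endothelial cells held Nr4a1 at 190 (177 to 205) and 169 (157 to 183) CPM in CFC-14d and Random-14d. Smooth muscle cells of the vessel wall held 184 and 189 CPM, and antigen-presenting dendritic cells 190 and 173 CPM. B cells, at 206 (170 to 246) and 149 (121 to 182) CPM, and neutrophils, at 147 CPM in both libraries, overlapped with them. Border-associated macrophages, the macrophages of the brain's linings, held 115 and 114 CPM. Brain-side classes were lower: microglia held Nr4a1 at 32.7 (30.2 to 35.3) and 24.9 (22.8 to 27.1) CPM, pericytes at 52.8 and 35.1 CPM, and astrocytes at 4.46 and 9.47 CPM from 4 and 7 UMIs. Erythroid cells, which should hold little of this RNA, had 1.68 and 2.29 CPM.

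The share of cells with an Nr4a1 UMI gave the same order at an equal depth of 1000 UMIs a cell. It was 51.2% (42.2 to 60.1) of non-classical monocytes in CFC-14d and 64.4% (53.4 to 74.4) in Random-14d, 88.7% and 82.8% before thinning. In endothelial cells it was 13.2% and 13.1% (22.6% and 19.9% unthinned), and in microglia 3.05% and 2.18% (6.04% and 4.24%). Against these, 0 of 410 erythroid cells had a UMI in CFC-14d, which allows a share of up to 0.732%, and 0.130% had one in Random-14d. Median depths were 6842 and 7358 UMIs in the erythroid cells against 2837 and 2369 in the non-classical monocytes, and the erythroid shares lay under those of monocytes, endothelial cells and microglia.

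Nr4a2 had another order, led by NK cells. NK cells, innate killer lymphocytes, held Nr4a2 at 173 (114 to 252) CPM in CFC-14d and 277 (211 to 357) in Random-14d, from 62 and 112 cells. Endothelial cells held 157 (144 to 170) and 136 (125 to 149) CPM, smooth muscle cells 149 and 117, and T cells 125 and 114. Those intervals overlapped within CFC-14d, while in Random-14d the NK interval lay above those of endothelial cells, smooth muscle cells and T cells. The T cell class included cluster 46 (15 and 19 cells), led by Cpa3, Areg and Gata3 and by no listed T cell marker. It held 3 of the 5 T cells with 3 or more Nr4a2 UMIs in CFC-14d and 2 of the 8 in Random-14d. The T cell level may thus include another cell type. Classical monocytes held Nr4a2 at 84.4 (50.8 to 132) and 139 (82.1 to 219) CPM, an interval that overlapped that of NK cells in both libraries, and B cells held 18.8 and 19.6 CPM. Non-classical monocytes, the leading class for Nr4a1, held Nr4a2 at 71.0 and 46.0 CPM. Microglia were at 4.50 and 4.35 CPM, and choroid plexus epithelium, which makes cerebrospinal fluid, at 4.66 and 4.12 CPM.

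Nr4a3 rested on few UMIs in the cells, 286 in CFC-14d and 205 in Random-14d. T cells held it at 37.8 and 68.8 (49.4 to 93.3) CPM, NK cells at 32.1 and 37.6, and dendritic cells at 28.8 and 26.8. These neighbours did not differ beyond counting error in CFC-14d. Neutrophils held 25.3 CPM from 5 UMIs in CFC-14d and no UMI in Random-14d. Endothelial cells, high for both other members, held Nr4a3 at 7.94 and 7.56 CPM, and microglia at 1.91 and 0.936.

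**Figure D2:**
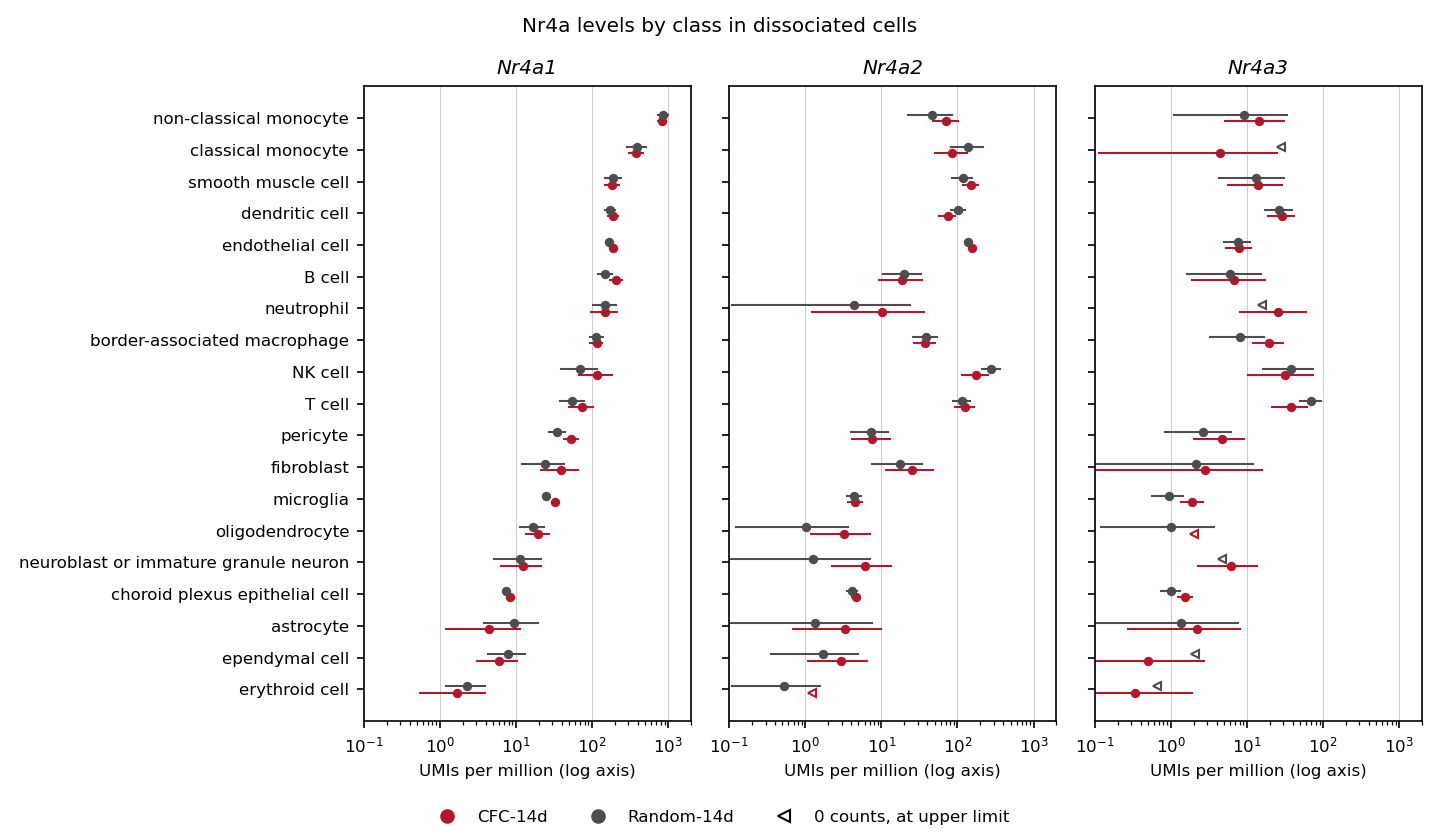
Levels of each member in classes of dissociated cells with at least 30 cells in both libraries (log axis, CPM); points are the 2 libraries, bars are 95% counting intervals, and open triangles mark the upper limit where no UMI was counted. Nr4a1 is highest in non-classical monocytes (833 and 860) and Nr4a2 in NK cells (173 and 277).

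Within classes the members also varied by cluster, though they and 34 other immediate-early genes were left out of the genes used for clustering. Endothelial cluster 16, led by Plvap, Rbp7 and Esm1 (genes of fenestrated and growing vessels), held Nr4a1 at 287 (256 to 321) CPM in CFC-14d and 384 (340 to 431) in Random-14d. Endothelial cluster 12, led by the blood-brain barrier genes Slco1a4 and Cldn5, held Nr4a1 at 152 and 118 CPM. Nr4a2 had the same order, at 238 and 202 CPM in cluster 16 against 124 and 121 in cluster 12. Both members were thus higher in the Plvap-led cluster in both libraries, with intervals that did not overlap. Among microglia, cluster 6, led by the chemokine genes Ccl4 and Ccl3, held Nr4a1 at 47.4 and 39.9 CPM, against 31.0 and 23.1 in the larger cluster 5, led by homeostatic genes such as Tmem119.

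Endothelial cells with many Nr4a1 UMIs were higher in Nr4a2 as well. In CFC-14d, the 84 endothelial cells with 3 or more Nr4a1 UMIs held Nr4a2 at 381 CPM against 121 in the rest, and in Random-14d 64 such cells held 310 against 120 CPM. Fos, the best known immediate-early gene, was higher in those cells as well, at 4451 against 2190 CPM in CFC-14d and 5579 against 2515 in Random-14d. The cells with 3 or more Nr4a1 UMIs were deeper, with medians of 5315 and 4516 UMIs against 1829 and 1592 for the class. Of them 38 and 36 lay in cluster 16, which was higher in Nr4a2 as a whole, and the part of cluster in this pattern was not tested. Fos levels were high in the dissociated cells at large, 1400 and 1451 CPM against 2.40 to 5.88 in the nuclei, and the cells had been digested with collagenase while the nuclei came from frozen tissue. The part of this handling in the cell levels was not tested, and cells and nuclei are described apart.

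In the nuclei, Nr4a3 was highest in mossy cells, the glutamatergic neurons of the hilus that feed back onto granule neurons. It stood at 129 (120 to 137) CPM in WT-naive, 141 (132 to 149) in WT-CFC and 73.5 (60.3 to 88.8) in KO-CFC. CA3 or CA2 pyramidal neurons followed at 60.3 (57.5 to 63.1), 65.5 (62.4 to 68.7) and 43.2 (39.5 to 47.2) CPM. Granule neurons, the principal cells of the dentate gyrus, held 8.65 (6.48 to 11.3), 12.1 (9.85 to 14.6) and 8.10 (6.13 to 10.5) CPM, and interneurons 6.73, 10.7 and 8.37. Mossy cells, pyramidal neurons and granule neurons stood in this order in each of the 3 libraries with intervals that did not overlap, whereas granule neurons and interneurons did not differ beyond counting error.

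Glial nuclei held Nr4a3 at levels near or above those of granule neurons in the wild-type libraries. Astrocytes held Nr4a3 at 12.2, 27.2 and 3.21 CPM in WT-naive, WT-CFC and KO-CFC, microglia at 17.8, 32.2 and 7.04, and oligodendrocytes at 12.6, 20.1 and 8.05. Snap25, a synaptic gene of neurons, moved with them over the libraries: in astrocyte nuclei it stood at 290, 394 and 179 CPM, against 743, 819 and 693 in the CA3 or CA2 neurons. The pooled unnamed nuclei held Nr4a3 at 30.2, 60.4 and 19.8 CPM, Nr4a2 at 3.88, 17.1 and 9.91, and Snap25 at 712, 1271 and 532. These nuclei were 17.5%, 39.3% and 15.9% of the libraries, with median depths of 627, 573 and 576 UMIs. They were a mixture that differed between libraries. Shallow clusters 10 and 31 stood beside deep ones such as cluster 7, led by Pappa. In KO-CFC 729 of 1134 lay in cluster 37, led by immunoglobulin genes. The pooled levels are therefore not a gauge of low-depth nuclei alone. The part of free RNA in the glial Nr4a3 levels was not tested.

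Thinned to 1000 UMIs, 12.5%, 12.5% and 4.73% of mossy cell nuclei held an Nr4a3 UMI in WT-naive, WT-CFC and KO-CFC (62.5%, 68.3% and 41.2% unthinned, at median depths of 11236, 13521 and 8273 UMIs). Astrocyte nuclei, given for comparison, held one in 1.42%, 2.15% and 0.429% at median depths of 1714, 2083 and 1650. The granule neuron shares of 1.05%, 1.05% and 0.633% did not differ from those of astrocytes beyond counting error. The CA3 or CA2 shares of 6.10%, 6.06% and 3.98% were above them in every library.

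Nr4a1 was also highest in mossy cells among the neurons, at 27.0 (23.3 to 31.0), 37.8 (33.6 to 42.5) and 33.4 (24.7 to 44.1) CPM in WT-naive, WT-CFC and KO-CFC. Oligodendrocyte precursors, the dividing glia that make myelin cells, held Nr4a1 at 24.6 (14.8 to 38.4), 18.7 (11.9 to 28.1) and 13 (3.54 to 33.3) CPM. Their interval overlapped that of mossy cells in WT-naive and KO-CFC. Interneurons held 11.9, 10.7 and 7.81 CPM and CA3 or CA2 neurons 9.50, 10.9 and 11.2 CPM, neighbours that did not differ beyond counting error. Granule neurons were lowest, at 1.96, 2.34 and 2.27 CPM.

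Nr4a2 levels in neurons differed between the libraries. Mossy cells held it at 7.57 (5.70 to 9.85) CPM in WT-naive, 19.9 (16.8 to 23.4) in WT-CFC and 33.4 (24.7 to 44.1) in KO-CFC. CA3 or CA2 neurons held 9.33 (8.27 to 10.5), 10.7 (9.42 to 12) and 20.6 (18.0 to 23.4) CPM. Granule neurons held 4.40 (2.90 to 6.41), 8.79 (6.91 to 11.0) and 14.9 (12.2 to 18.1) CPM. The intervals of the 3 libraries did not overlap in mossy cells or granule neurons, and in CA3 or CA2 neurons only KO-CFC lay apart. These intervals treat each UMI as independent. Much of the Nr4a2 RNA of mossy cells and CA3 or CA2 neurons lay in few nuclei, as described below, so the intervals are too narrow there. Interneurons, which inhibit their neighbours, held 1.09, 3.26 and 1.67 CPM from 3 to 18 UMIs.

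**Figure D3:**
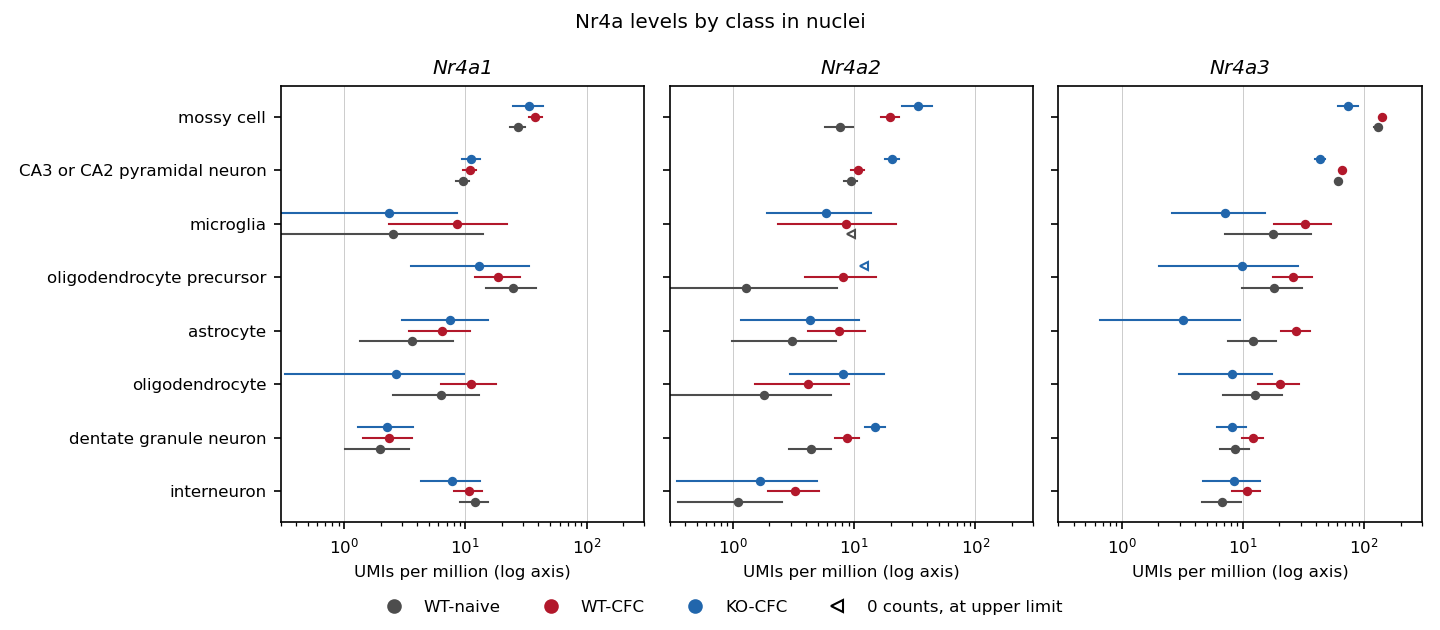
Levels of each member in classes of nuclei with at least 100 nuclei in every library (log axis, CPM); points are the 3 libraries, bars are 95% counting intervals, and open triangles mark the upper limit where no UMI was counted. Nr4a3 is highest in mossy cells and then CA3 or CA2 neurons in all 3 libraries, and Nr4a2 in mossy cells stands at 7.57, 19.9 and 33.4.

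The first comparison asks how cells differed 14 days after conditioning from cells after random shocks. Differences are log2 ratios of CPM with 0.5 counts added, and a gene was called where the libraries lay at least 1.5-fold apart. Of the 13 member-class pairs with at least 100 cells a library and 100 UMIs in all, 2 were called higher in CFC-14d and 0 lower. Over all genes and classes 6.50% of 66752 pairs were called, 5.76% higher and 0.742% lower. The called pairs were Nr4a1 in pericytes, the cells that wrap capillaries (0.59, interval 0.12 to 1.07), and Nr4a3 in choroid plexus epithelium (0.62, 0.12 to 1.14).

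In pericytes Nr4a1 stood at 52.8 (42.4 to 64.8) CPM against 35.1 (27.2 to 44.5), intervals that overlapped slightly, and the value lay just past the threshold. Of 34 immediate-early genes, 19 had enough counts in pericytes, and 9 were called higher and 0 lower, where 3.43% of all genes were called higher, with a median of 0.58 against 0.05 over all genes of the class. The largest were Klf4 (1.30), Dusp6 (0.92), Klf2 (0.91) and Jun (0.86). Klf4 and Klf2 are flow-responsive factors, Dusp6 is a feedback phosphatase of ERK and Jun is an AP-1 subunit. Genes of microglia moved in the same direction there: of 5 measured microglial chemokine and cytokine genes, 4 were higher in CFC-14d pericytes, and their part in the result was not tested.

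In choroid plexus epithelium all members were low, and different clusters made up the class in the libraries. Nr4a3 stood at 1.54 (1.25 to 1.88) against 1.0 (0.743 to 1.32) CPM, with 99 and 50 UMIs. Cluster 0, led by Abhd2, held 5208 of the 9623 choroid cells of CFC-14d, and there Nr4a1 was at 18.9 (16.5 to 21.6) CPM, Nr4a2 at 10.8 and Nr4a3 at 2.73. In cluster 4, which both libraries filled with 1311 and 1444 cells, Nr4a3 was at 1.47 and 1.22 CPM, Nr4a1 at 7.02 and 8.64, and Nr4a2 at 3.95 and 4.84. None of the members lay 1.5-fold apart within that shared cluster. Over the whole class, 22 of 25 measured immediate-early genes and 10 of 10 microglial chemokine and cytokine genes were higher in CFC-14d, as were 16.3% of all genes tested there.

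Other pairs lay closer to 0. In microglia Nr4a1 differed by 0.39 (0.22 to 0.56), under the 1.5-fold threshold but with an interval above 0, where 0.896% of genes were called higher. Of 27 measured immediate-early genes in microglia, 25 were above 0, with a median of 0.14, and Maff (0.73) and Dusp5 (0.60) were called. B cells had an Nr4a1 difference of 0.46 (0.06 to 0.86), beside a median of 0.41 over 17 measured immediate-early genes and 0.12 over all genes of the class. Nr4a1 in endothelial cells differed by 0.17 (0.01 to 0.32) and Nr4a2 by 0.20 (0.03 to 0.37). Much of this RNA lay in few endothelial cells, so both intervals are too narrow. Cells with 3 or more UMIs of the member held 55.1% and 44.5% of Nr4a1 in CFC-14d and Random-14d. For Nr4a2 they held 53.9% and 32.5%, with at most 37 and 6 UMIs in a cell. The only pair below 0 was Nr4a2 in dendritic cells, at -0.47 (-0.95 to -0.01).

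The second comparison sets WT-CFC against WT-naive nuclei. Of 9 member-class pairs, 2 were called higher in WT-CFC and 0 lower, where 6.07% of 67712 gene-class pairs were called, 3.42% higher and 2.65% lower. Both were Nr4a2, by 1.39 (0.94 to 1.87) in mossy cells and by 0.98 (0.34 to 1.69) in granule neurons. Nr4a2 in CA3 or CA2 neurons differed by 0.19. In the pooled unnamed nuclei it lay further apart, by 2.10 (1.32 to 3.07), at 17.1 against 3.88 CPM. That pool was made up differently in the libraries, so this ratio also compares unlike mixtures. Its shallow cluster 31 held 228 WT-naive and 2435 WT-CFC nuclei, and its deep cluster 7, led by Pappa, 127 and 83. Interneurons, under the minimum of UMIs, differed by 1.49 (0.10 to 3.37), from 18 and 5 UMIs. Astrocytes differed by 1.19 (-0.25 to 3.10), from 15 and 5 UMIs. The interneuron interval lay above 0, so the higher Nr4a2 of WT-CFC was not confined to mossy cells and granule neurons. The part of free RNA in these Nr4a2 differences was not tested. For Nr4a3 the differences were 0.13 (0.00 to 0.26) in mossy cells, 0.12 (0.02 to 0.22) in CA3 or CA2 neurons and 0.47 (-0.01 to 0.99) in granule neurons. Under the minimum of UMIs, Nr4a3 lay further apart in astrocytes, by 1.14 (0.40 to 1.98, from 55 and 20 UMIs). Interneurons differed by 0.65 (0.01 to 1.34, from 59 and 31 UMIs). Microglia, oligodendrocytes and their precursors lay above 0 with intervals that held 0. The part of free RNA in the Nr4a3 differences was not tested either. For Nr4a1 they were 0.49 (0.22 to 0.76) in mossy cells, 0.20 in CA3 or CA2 neurons and -0.16 in interneurons.

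Much of the Nr4a2 RNA of WT-CFC mossy cells was counted in few nuclei. No nucleus of the 594 in WT-naive held 3 or more Nr4a2 UMIs, which allows a share of up to 0.505%. In WT-CFC 13 of 514 did (2.53%, 1.35 to 4.29), with up to 18 UMIs in 1 nucleus, and these held 86 of the 150 Nr4a2 UMIs of the class (57.3%). In KO-CFC 5 of 170 did (2.94%, 0.962 to 6.73). The 13 nuclei were deeper than the class, with a median of 16330 UMIs against 13521.

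Of those 13 nuclei, 10 lay in mossy cluster 34, led by Trpc7 and Glra3. Nr4a2 in that cluster stood at 10.9 CPM in WT-naive (116 nuclei) and at 44.8 (36.5 to 54.3) in WT-CFC (171 nuclei). In cluster 33, led by Csf2rb2 and Ttn, it was at 3.73 and 6.38 CPM, and in cluster 11, led by Trpc7 and Csf2rb2, at 7.79 and 11.8. Nr4a3 stood at 86.2 and 150 CPM in cluster 34, 174 and 152 in cluster 33 and 108 and 115 in cluster 11. Both were higher in WT-CFC in cluster 34, while Nr4a3 was lower in cluster 33.

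The nuclei rich in Nr4a2 were rich in the other members and in genes of recent activity. In the 13 mossy cell nuclei of WT-CFC, Nr4a3 stood at 748 (640 to 868) CPM against 121 in the other 501, and Nr4a1 at 143 against 34.5. Fos gave 23 UMIs in the 13 nuclei and 21 in the other 501, and Npas4, an activity-dependent factor largely of neurons, was at 104 against 7.66 CPM. Egr1, a zinc-finger factor, was at 91.3 against 8.76 CPM, and Arc, which acts at synapses, at 73.9 against 11.9. Summed over 34 immediate-early genes the level was 2778 against 506 CPM.

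CA3 or CA2 neurons held such nuclei in all 3 libraries, the untreated one included: 21 of 3388 (0.620%) in WT-naive, 20 of 2342 (0.854%) in WT-CFC and 21 of 1446 (1.45%) in KO-CFC. They carried 33.3%, 48.3% and 65.0% of the class's Nr4a2 UMIs. Nr4a3 in them stood at 344, 434 and 379 CPM against 57.9, 61.1 and 37.4 in the rest, and Nr4a1 at 113, 84.0 and 187 against 8.63, 10.0 and 8.13. Npas4 was at 138, 155 and 218 CPM against 4.48, 3.69 and 3.57, and Fos at 52.6, 57.1 and 77.8 against 1.38, 1.56 and 2.86. The pattern was the same in every library, with intervals that did not overlap for these genes. The CA3 or CA2 nuclei rich in Nr4a2 were not spread evenly over clusters. In WT-naive they were 11 of 743 nuclei in cluster 5 and 10 of 2560 in cluster 6. For WT-CFC the counts were 9 of 279 and 9 of 1917. In KO-CFC 19 of the 21 lay in cluster 8, which held few wild-type nuclei. In the 5 such mossy cell nuclei of KO-CFC, Nr4a3 stood at 158 (84.1 to 270) against 68.5 CPM and Nr4a1 at 48.6 (13.2 to 124) against 32.5. Arc and Npas4 had 0 UMIs in them, an upper bound of 44.8 CPM that lies above the 12.3 and 14.4 CPM of the rest, so no difference was detectable at this depth.

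**Figure D4:**
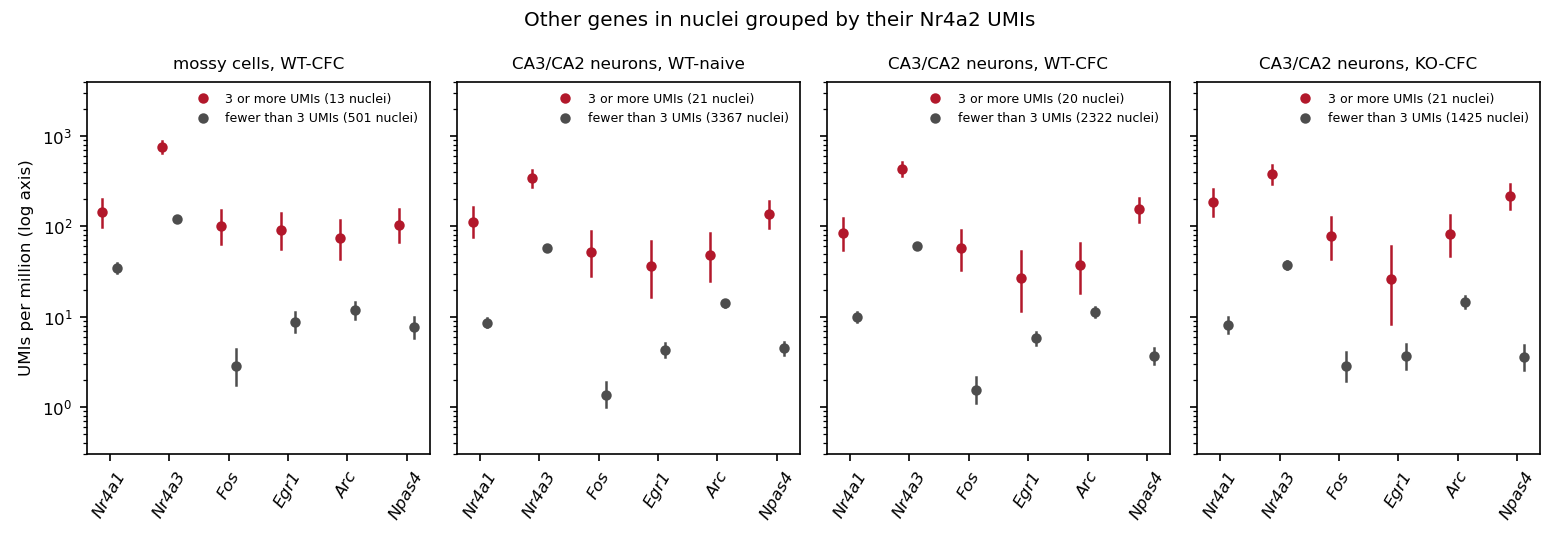
Levels (log axis, CPM) of the other members and of Fos, Egr1, Arc and Npas4 in nuclei with 3 or more Nr4a2 UMIs (red) and in the other nuclei of the class (grey), for mossy cells of WT-CFC and for CA3 or CA2 neurons of each library; bars are 95% counting intervals. Every gene is higher in the nuclei rich in Nr4a2, such as Nr4a3 at 748 against 121 in mossy cells.

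Few other immediate-early genes were called in WT-CFC against WT-naive. In mossy cells 3 of 15 measured were called higher and 0 lower, where 2.88% of all genes were called higher, and their median was 0.10 against 0.04 over all genes: the prohormone convertase Pcsk1 (1.0), Egr1 (0.65) and Jun (0.59). In CA3 or CA2 neurons 2 of 25 were higher (Egr4, 0.80, and Jun, 0.68) and 3 lower (Csrnp1, -0.90, Ier2, -0.83, and Dusp1, -0.67). In granule neurons 1 of 9 was higher, Jund (0.60). Of 22 CREB, MEF2 and SRF regulators, the upstream arm of the pathway, 21 in mossy cells, 22 in CA3 or CA2 neurons and 21 in granule neurons could be measured, and 0 were called in either direction. Among 13 genes for RXR receptors (dimer partners of Nr4a1 and Nr4a2), corepressors and modifiers, 12 were measured in mossy cells, and Pias4 (0.77) and Rcor2 (0.65) were called higher. None of 11 measured was called in CA3 or CA2 neurons or in granule neurons.

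Heat shock genes, which handling can raise, were higher in WT-CFC neurons too: 4 of 6 measured in mossy cells, with a median of 0.75, 4 of 9 in CA3 or CA2 neurons, with a median of 0.52, and 5 of 7 in interneurons, with a median of 0.73. Of all genes, 2.88%, 1.83% and 3.30% were called higher in these classes. Oligodendrocytes had 4 of 6 called higher, with a median of 0.82, where 11.4% of all genes were called higher, so neurons were not alone in this. In granule neurons and in astrocytes 0 of 6 were called. The part of the heat shock genes in the Nr4a2 difference was not tested.

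The third comparison sets KO-CFC against WT-CFC, and it shares the WT-CFC library with the second. Of 8 member-class pairs, 3 were called higher in KO-CFC and 2 lower, where 23.1% of 62323 gene-class pairs were called, 14.8% higher and 8.27% lower. Calls were common across all genes in this comparison. Nr4a2 was higher in the 3 neuron classes with enough counts, by 0.95 (0.69 to 1.21) in CA3 or CA2 neurons, 0.76 (0.25 to 1.22) in mossy cells and 0.76 (0.32 to 1.21) in granule neurons. Nr4a3 was lower, by -0.93 (-1.23 to -0.65) in mossy cells and -0.60 (-0.75 to -0.45) in CA3 or CA2 neurons, with -0.57 (-1.07 to -0.10) in granule neurons just inside the threshold. Nr4a1 lay at -0.17 (-0.65 to 0.26) in mossy cells and 0.04 in CA3 or CA2 neurons. Nr4a2 and Nr4a3 thus lay in opposite directions in mossy cells, CA3 or CA2 neurons and granule neurons. Interneurons fell under the minimum of UMIs, with Nr4a2 at -0.78 (-3.37 to 0.82, from 3 and 18 UMIs) and Nr4a3 at -0.32 (-1.28 to 0.49). Glia, also under the minimum, were lower in Nr4a3 too. Astrocytes lay at -2.87 (-5.41 to -1.46), microglia at -2.13 (-3.85 to -0.75) and oligodendrocytes at -1.23 (-2.88 to -0.02). Oligodendrocyte precursors lay at -1.22 (-3.77 to 0.26). The lower Nr4a3 of KO-CFC was therefore not confined to neurons, and the part of free RNA in it was not tested.

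Against WT-naive, which the second comparison also uses, KO-CFC showed Nr4a2 differences of 2.14 in mossy cells, 1.14 in CA3 or CA2 neurons and 1.74 in granule neurons. The Nr4a3 differences were -0.80, -0.48 and -0.10. Of the 8 member-class pairs, 3 were called higher and 1 lower, where 23.1% of gene-class pairs were called, 16.2% higher and 6.90% lower.

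Most granule, mossy and CA3 or CA2 nuclei of KO-CFC lay in clusters that held few wild-type nuclei, while its interneurons shared clusters with the wild-type libraries. Of its 1938 granule neuron nuclei 1851 were in cluster 1, and of its 170 mossy cell nuclei 113 were in cluster 36, which held 1 nucleus of each wild-type library. Of its 1446 CA3 or CA2 nuclei, 1257 were in cluster 8, led by Mageb18 and Adam2, which held only 71 of WT-naive and 125 of WT-CFC. In that cluster Nr4a3 stood at 86.7 and 89.4 (73.7 to 107) CPM in WT-naive and WT-CFC and at 40.8 (36.9 to 44.9) in KO-CFC. In cluster 6, which held most wild-type nuclei, Nr4a3 was at 60.5, 65.9 and 64.3 (48.7 to 83.3) CPM, the last from 123 nuclei, and in cluster 5 at 55.7, 56.7 and 56.9. The Nr4a3 difference was therefore present in cluster 8 and not in clusters 5 and 6, where the KO-CFC nuclei were few. Nr4a2 stood at 12.5 and 21.2 CPM in cluster 8 for WT-CFC and KO-CFC, at 8.52 and 12.4 in cluster 6, and at 20.5 and 23.6 in cluster 5.

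Mossy cell nuclei with many Nr4a3 UMIs were fewer in KO-CFC. In this class, 121 of 594 nuclei in WT-naive (20.4%), 134 of 514 in WT-CFC (26.1%) and 8 of 170 in KO-CFC (4.71%) held 3 or more Nr4a3 UMIs, up to 26, 34 and 6 in 1 nucleus. The KO-CFC mossy cell nuclei were shallower, with a median of 8273 UMIs against 13521, and the number that reaches 3 UMIs depends on depth. Thinned to 5000 UMIs, 41.4%, 40.3% and 28.0% of mossy cell nuclei held an Nr4a3 UMI in WT-naive, WT-CFC and KO-CFC, and 3.98%, 5.14% and 10.7% an Nr4a2 UMI. Thinning left out 67, 28 and 20 nuclei. KO-CFC was lowest for Nr4a3 at this depth too, and its Nr4a2 interval (6.22 to 16.7) overlapped that of WT-CFC (3.36 to 7.50).

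**Figure D5:**
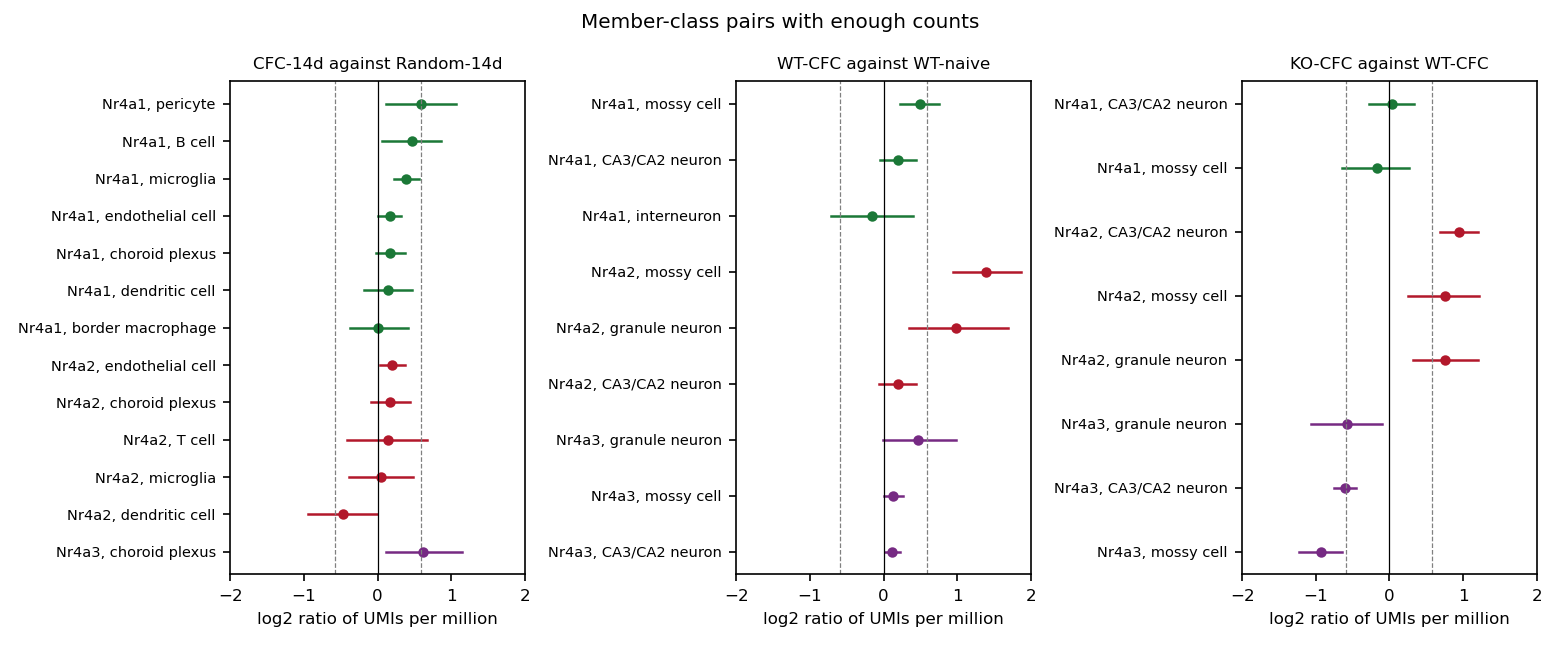
Log2 ratios of CPM with 95% counting intervals for each member-class pair with at least 100 barcodes in both libraries and 100 UMIs in all, in 3 comparisons; colours mark the member, and dashed lines the 1.5-fold thresholds. Nr4a2 lies to the right in WT-CFC mossy cells (1.39) and granule neurons (0.98), and in KO-CFC Nr4a2 and Nr4a3 lie on opposite sides.

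Other immediate-early genes were called higher in KO-CFC neurons and none lower, where 15.7% of all genes were called higher in granule neurons, 16.3% in CA3 or CA2 neurons and 17.4% in mossy cells. In granule neurons 10 of 14 measured were called higher and 0 lower, with a median of 0.92 against 0.05 over all genes: Nptx2, a secreted synaptic organizer, stood at 28.6 against 2.46 CPM (3.51), Arc at 17.9 against 2.58 (2.77), Ier5 at 1.33 and Egr3 at 1.24 on the log2 scale. In CA3 or CA2 neurons 8 of 23 were higher, with a median of 0.42 against 0.10, led by the phosphatase gene Dusp1 (1.58), Gadd45b (1.37), the AP-1 subunit Junb (1.21) and Nptx2 (0.95). Nptx2 was also a leading gene of cluster 38, led by Ighg2b, and of T cell cluster 39, with 180 and 76 KO-CFC nuclei. The part of free RNA in the Nptx2 differences was not tested. In mossy cells 3 of 10 were higher, a share nearer to that of all genes: Junb (1.41), Klf6 (0.65) and the neurotrophin gene Bdnf (0.59). Nr4a2 had the sign of these lists and Nr4a3 the opposite sign. Of the CREB, MEF2 and SRF regulators, 2 of 20 were lower in mossy cells, where 7.64% of all genes were: the deacetylase Hdac4 (-0.88) and the phosphodiesterase Pde10a (-0.61). Pde4d, a phosphodiesterase that breaks down cAMP, was lower by -1.54 in granule neurons and -0.70 in CA3 or CA2 neurons, where Crtc3, a CREB coactivator, was higher (0.63). Among the RXR and corepressor genes, Rcor1 (-0.66) was among those lower in mossy cells, none of 11 measured was called in CA3 or CA2 neurons, and Pias4 (1.0) was higher in granule neurons.

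The genes whose levels over classes were most like each member were ranked by Pearson correlation of log2(CPM + 1). In the cells, over 14 classes and 2 libraries (28 points, which share libraries and depth), Nr4a1 was closest to H2-D1 (0.93), Trim25 (0.93), Bcl3 (0.92), St8sia4 (0.91) and Samd9l (0.91). Nr4a2 was closest to Clec2d (0.93), Fxyd5 (0.92), Slfn5 (0.91), Samd9l (0.91) and H2-T22 (0.89), and Nr4a3 to Ifi47 (0.91), AW112010 (0.90), Nlrc5 (0.89), Zbp1 (0.89) and Slfn2 (0.88). The members correlated among themselves at 0.86 (Nr4a1 and Nr4a2), 0.75 (Nr4a1 and Nr4a3) and 0.88 (Nr4a2 and Nr4a3). With Fos the values were 0.83 for Nr4a1, 0.66 for Nr4a2 and 0.60 for Nr4a3.

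In the nuclei, over 8 classes and 3 libraries (24 points), the closest genes to Nr4a1 were Armh4 (0.89), Satb1 (0.86), Ext1 (0.86), Arvcf (0.85) and Neto2 (0.84). Those closest to Nr4a2 were Rab3d (0.83), Prss36 (0.82), Rin1 (0.81), Schip1 (0.80) and Rnf112 (0.80), and those closest to Nr4a3 were Exph5 (0.91), Fhl2 (0.90), Cpne9 (0.89), Peak1 (0.88) and Ext1 (0.87). The members were less alike there, at 0.21 for Nr4a1 and Nr4a2, 0.65 for Nr4a1 and Nr4a3 and 0.54 for Nr4a2 and Nr4a3. Fos, with few UMIs in nuclei, had values of -0.04, 0.08 and -0.08 with Nr4a1, Nr4a2 and Nr4a3, and Npas4 had 0.53, 0.66 and 0.72.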

How the data were processed

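The 5 deposited matrices hold raw UMI counts per gene and barcode. Per the file headers they were made with Cell Ranger 8.0.1. Seurat 5.4.0 and the build GRCm39 stand in the submitters' processing notes, and no source used here names the annotation. Per the labels' protocols, cells were dissociated with collagenase and nuclei came from frozen tissue.

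Barcodes with at least 500 UMIs, 300 genes and at most 20% (cells) or 5% (nuclei) mitochondrial UMIs were kept. Doublets were scored against simulated pairs; 8.00% to 14.7% of barcodes were removed. Cells and nuclei were clustered apart with scanpy 1.11.5 (2000 variable genes, 30 components, 15 neighbours, Leiden resolution 1); some clusters were split further. Clusters were named from marker lists of 30 classes, with limits set after seeing the data, so differences can come from rebuilt names; 38 of 48 and 41 of 57 clusters were named, the others pooled as unnamed. Counts were summed by class and library and given as CPM with exact Poisson intervals. Log2 ratios have exact binomial intervals (scipy 1.17.1), and no p-value was computed. Shares were thinned to 1000 UMIs, with exact Clopper-Pearson 95% intervals; a count of 0 allows up to 3 counts. PCR copies were collapsed by UMI, and all intervals and limits cover counting error only. The ratios were tested on simulated data. Levels of different genes were not compared, since tag counts depend on the gene.

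The members, marker and gene lists were chosen with earlier results of these data known. Named genes were the members, Fos, Egr1, Arc and Npas4, the 5 genes most like each member (ranked among genes with at least 500 counts, without unnamed gene models and sex-linked genes), and the largest changes past 1.5-fold, up to 4 a direction, of the lists; Snap25, Xist, Uty and Csf2rb2 were added as checks. Other settings were tried, 17 fixed with the design and 2 chosen after seeing the data. A result for 1 gene of the lists is not reported here.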

Additional observations from a re-analysis of the deposited data

How the results depend on the processing

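No paired analysis was possible because each group had 1 library. Under the alternatives 407 class ratios stayed within their counting interval, 22 moved out of it, and 0 turned their sign from a called value. Weighting barcodes equally moved the ratios over all barcodes: CFC-14d against Random-14d to 0.05 for Nr4a1 (from 0.17) and -0.21 for Nr4a2 (from 0.00), WT-CFC against WT-naive to 0.76, 1.36 and 0.56 for Nr4a1, Nr4a2 and Nr4a3 (from 0.24, 0.68 and 0.11), and KO-CFC against WT-CFC to -1.13, -0.48 and -1.62 (from -0.59, 0.54 and -1.08), which turned the sign for Nr4a2. With 1000 UMIs and 500 genes a barcode, Nr4a1 in CFC-14d against Random-14d was 0.27. The causes were not tested.

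The 2 pairs higher in CFC-14d were 1 under the stricter UMI filter, the mitochondrial limit of 10% in cells and 2% in nuclei, no doublet removal, removal of 15% of barcodes, libraries clustered alone, and totals without haemoglobin, mitochondrial and ribosomal protein UMIs. They were 0 at Leiden resolution 2 and 4 (with 1 lower) with equal weights. The 2 pairs higher in WT-CFC were 4 without doublet removal and with best-scoring class names, and 1 with 15% removed and at resolution 2. The 2 pairs lower in KO-CFC were 4 without doublet removal and with best-scoring names, and the 3 higher were 1 with equal weights. Count minimums test more pairs: at 20 counts and at none, 5 and 13 pairs were higher and 1 and 4 lower in CFC-14d, 9 and 14 higher in WT-CFC, and 7 and 11 lower in KO-CFC.

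Leaving out barcodes with 3 or more UMIs of the member, chosen after seeing the data, selects on the counts compared and lowers the library with more such barcodes by construction, so nothing was drawn from it. In WT-CFC against WT-naive it moved Nr4a2 from 0.19 to -0.17 in CA3 or CA2 neurons and from 1.39 to 0.21 in mossy cells. Nr4a3 in mossy cells moved from 0.13 to -0.21. In KO-CFC against WT-CFC it moved Nr4a3 in mossy cells from -0.93 to -0.06 and in CA3 or CA2 neurons from -0.60 to -0.56. Nr4a2 in those CA3 or CA2 neurons moved from 0.95 to 0.40. The called pairs among these fell under the 1.5-fold threshold. Nr4a2 in granule neurons, in both comparisons, and in KO-CFC mossy cells stayed at least 1.5-fold apart. Of the 5 genes most like each member, 2 or 3 were also among the 5 by Spearman correlation. Depth limits the shares: within mossy cells, CA3 or CA2 neurons and granule neurons, KO-CFC nuclei were shallowest (medians of 8273, 7402 and 3249 UMIs).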
